A study of Rattus norvegicus with 9 samples.

Results

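To explore how the genes of fibronectin and the matricellular proteins were expressed among adipose-derived stem cells (ASCs) of 3 adipose deposits, Fn1, Tnc, Tnn, Postn, Sparc, Spp1, Thbs2, Thbs3, Thbs4, and Comp were selected by their gene symbols. Of these 10 genes, 9 were found among the 35362 genes of the table, and all 9 passed the filter on low counts, while Thbs3 was not analysed here. SASCs were grown from the subcutaneous adipose tissue of the groin, PASCs from the perirenal and EASCs from the epididymal adipose tissue of untreated male Sprague Dawley rats aged 6 weeks, and passage 3 cells of each deposit gave RNA for 3 of the 9 libraries. No group was treated or genetically altered, and the cells were obtained by collagenase digestion and adherence to culture dishes, with no sorting step stated, so each sample may hold more than 1 cell type. In such bulk RNA, fewer cells of a type and less RNA per cell cannot be told apart. The methods give 6 replicates in each group and do not say whether the 3 samples are different rats or different wells of one culture, so the p-values measure only the spread between these samples, which may be technical.

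Fibronectin, the product of Fn1, is a large glycoprotein that cells assemble into fibrils through integrins, and these fibrils carry other matrix proteins. Matricellular proteins are secreted into the same matrix but mainly modulate how cells attach, move, and respond to growth factors, rather than serving as its scaffold. In connective tissue they include tenascins, periostin, SPARC, osteopontin, and thrombospondins, and several of them are abundant in healing wounds and in fibroblasts under tension.

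The promoter sequences of Tnc, Postn, and Thbs4 are shown because Tnc was highest in EASCs and the other two in PASCs, as described with their values. They are the 120 bases before the start of each gene, 5′ to 3′ on the strand of the gene, from RefSeq on the rat build GRCr8, where 7 of the 9 genes were found. Capitals mark letters that match a searched motif.
Tnc: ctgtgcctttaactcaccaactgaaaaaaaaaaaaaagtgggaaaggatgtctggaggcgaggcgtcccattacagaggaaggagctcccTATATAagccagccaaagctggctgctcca
Postn: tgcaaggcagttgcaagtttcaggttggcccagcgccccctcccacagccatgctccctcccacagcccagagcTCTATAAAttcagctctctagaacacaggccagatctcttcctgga
Thbs4: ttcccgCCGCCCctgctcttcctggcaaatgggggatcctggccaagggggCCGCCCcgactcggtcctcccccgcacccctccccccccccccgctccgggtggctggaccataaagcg
The first lies at chr5:82476132-82476251 on the minus strand, the second at chr2:140677941-140678060 on the plus strand, and the third at chr2:25760346-25760465 on the minus strand. The 4 motifs searched on both strands were TATANA as a TATA box, GGAATG as the site of TEAD factors, CCAAT as a CCAAT box, and GGGCGG as a GC box. The first began 30 bases before the start of Tnc, where the match reads the same on both strands, and 46 and 44 bases before the start of Postn on opposite strands in overlapping positions. It was in 12.7% of 33469 promoters of the same length. GGGCGG was found 114 and 69 bases before the start of Thbs4 on the opposite strand and in 23.7% of all promoters. CCAAT was found in the window of Tnn and in 19.9% of all promoters, and GGAATG in that of Sparc and in 5.98%. No motif was found in the windows of Spp1, also highest in PASCs, and Comp, whose mean was highest in EASCs. These matches describe letters only and do not show that a factor binds there.

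Total counts ranged from 17591916 to 30299032 per sample, and 3 counts in a sample corresponded to 0.104 to 0.159 CPM, the counts scaled to a common library size by TMM, below which no level could be resolved by counting. Genes of ribosomal RNA made up 10.4 to 15.5% of the SASCs libraries, 22.4 to 32.9% of the PASCs libraries, and 15.9 to 40.3% of the EASCs libraries. Markers of mesenchymal stem cells were present, with 7 of 7 at 1 FPKM or more in every group, where FPKM is the scaled level per kilobase of gene length. Of these, 2 were upregulated and 1 downregulated in EASCs against SASCs, 0 and 1 in PASCs against SASCs, and 2 and 0 in EASCs against PASCs, with Pdgfra at 215 FPKM in SASCs, 38.7 in PASCs, and 32.7 in EASCs and Eng at 20.7, 31, and 70.6. A gene was called a DEG when edgeR's quasi-likelihood test over 14770 genes gave an adjusted p-value under 0.05 and its fold change exceeded 2.

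The transcripts of the 9 genes spanned a wide range of levels per length. In SASCs, Sparc had 2074 FPKM ± 36.4 (SD, n = 3), Fn1 655 ± 50.3, and Thbs2 262 ± 5.52. Tnc (28.5 ± 1.36), Spp1 (20.4 ± 1.42), and Postn (19.7 ± 0.192) followed, and Tnn, Thbs4, and Comp were each under 1 FPKM. In EASCs the level of Tnc was 461 FPKM ± 29.5 and stood below Sparc (3153 ± 62.6) and Fn1 (757 ± 77.8) and above Thbs2 (106 ± 4.80). In PASCs, Tnc (129 FPKM ± 9.01) and Thbs2 (111 ± 7.26) were adjacent in this order, below Fn1 (356 ± 48.3). Thus the order of Tnc and Thbs2 was opposite in SASCs and EASCs.

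**Figure D1:**
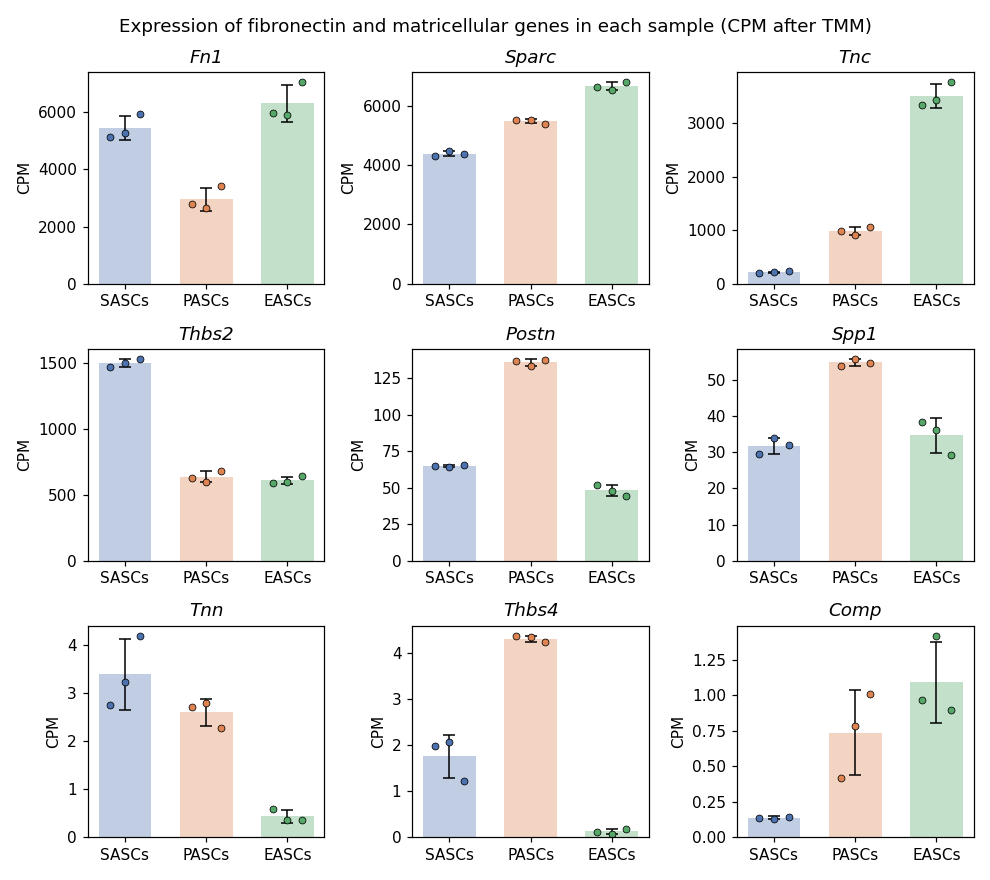
CPM after TMM scaling, on a linear axis of its own for each of the 9 genes, in SASCs, PASCs, and EASCs. Points are samples, bars group means, and whiskers SDs (n = 3). Tnc was between 208 and 229 CPM in SASCs and between 3343 and 3767 in EASCs, while Thbs4 was under 0.2 CPM in the 3 EASCs samples.

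Of the 9 genes, 5 were DEGs between EASCs and SASCs (55.6%), against 27.8% of all genes tested. Tnc and Comp were upregulated in EASCs (2 genes, against 13.6% of all genes), and Tnn, Thbs2, and Thbs4 were downregulated (3 genes, against 14.2%). Between PASCs and SASCs, 5 genes were DEGs, against 26.9% of all genes, with Tnc, Postn, Thbs4, and Comp upregulated (4 genes, against 12%) and Thbs2 downregulated (1 gene, against 14.9%) in PASCs. With only SASCs and PASCs fitted, Comp did not pass the filter on low counts, which left 3 upregulated and 1 downregulated. Between EASCs and PASCs, 5 genes were DEGs, against 7.39% of all genes, with Fn1 and Tnc higher (2 genes, against 5.19%) and Tnn, Postn, and Thbs4 lower in EASCs (3 genes, against 2.2%). Without regard to fold, 8, 8, and 7 of the 9 genes had an adjusted p-value under 0.05 by edgeR, against 69.7%, 69.2%, and 30.7% of all genes. The median log2 fold change of the 9 genes was 0.13, 0.79, and −0.06 in the 3 comparisons, beside 0.01, −0.01, and −0.01 over all genes. The samples did not overlap between the groups for 7, 8, and 7 of the genes, and this held for 72.1%, 71.6%, and 41.2% of all genes. The comparisons with SASCs share the SASCs samples and are therefore given side by side. The genes were chosen with earlier results of these data known, so these shares are descriptive only. With scaling by total counts in place of TMM, the numbers were 2 upregulated and 2 downregulated in PASCs against SASCs and 1 and 3 in EASCs against PASCs. On that scale the medians of all genes in these comparisons were −0.33 and −0.08.

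**Figure D2:**
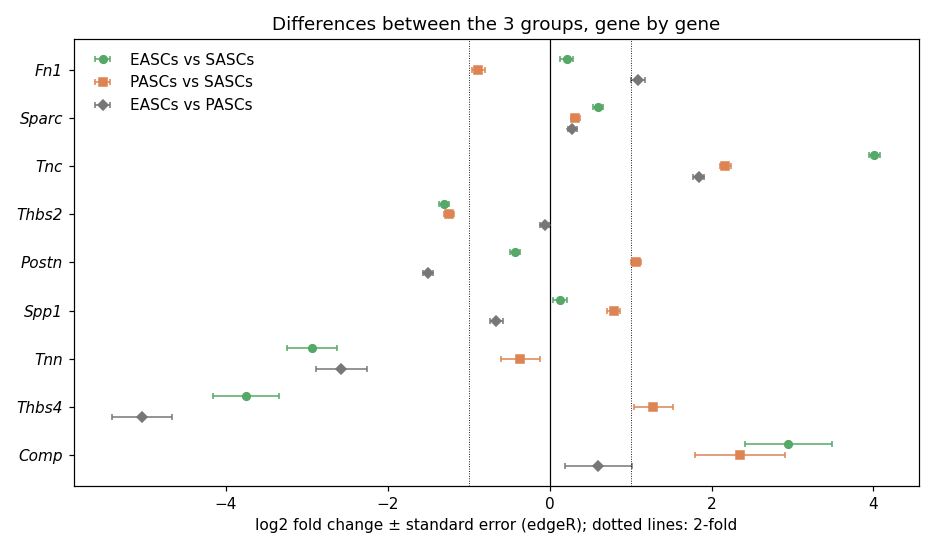
Log2 fold changes of the 9 genes in EASCs and PASCs against SASCs and in EASCs against PASCs. Points are edgeR estimates, whiskers standard errors derived from the F statistic of the test, and dotted lines mark 2-fold. Tnc was higher in each comparison, at 4.01, 2.17, and 1.84, and Thbs4 was higher in PASCs and lower in EASCs than in SASCs.

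Fn1 (chromosome 9, 78900111 to 78969015, minus strand) was lowest in PASCs. Its levels in samples 1 to 3 were 5152, 5285, and 5935 CPM in SASCs, 2806, 2666, and 3423 CPM in PASCs, and 5980, 5899, and 7062 CPM in EASCs. All PASCs samples lay below all others, whereas SASCs and EASCs overlapped. Fn1 was a DEG between EASCs and PASCs, with a log2 fold change of 1.09 (SE 0.0831, edgeR adjusted p = 2.8e-11), although at 1.00 under scaling by total counts it did not exceed 2-fold. It was lower in PASCs than in SASCs by less than 2-fold, at −0.88 (SE 0.0828, edgeR adjusted p = 3.37e-10), and by more than 2-fold under scaling by total counts, at −1.19. The difference between EASCs and SASCs was 0.21 (SE 0.0822, edgeR adjusted p = 0.0254). This last call was lost without SASCs sample 1 (edgeR adjusted p = 0.112), SASCs sample 2 (0.0773), or EASCs sample 3 (0.168) and with DESeq2 (0.18). Scaling by total counts gave −0.20, which was 0.19 relative to the median of all genes on that scale. Gene counts do not resolve the spliced forms of fibronectin.

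Tenascin-C, the product of Tnc, is a hexameric glycoprotein that binds fibronectin and is abundant in developing and healing tissue, and its gene (chromosome 5, 79789686 to 79874550, minus strand) showed the steepest difference among the abundant members. Tnc was measured at 208, 216, and 229 CPM in SASCs, at 976, 915, and 1052 CPM in PASCs, and at 3343, 3427, and 3767 CPM in EASCs. The 3 groups did not overlap, in the order SASCs, PASCs, EASCs. Its log2 fold change was 4.01 in EASCs (SE 0.0715, edgeR adjusted p = 4.46e-26) and 2.17 in PASCs (SE 0.0664, edgeR adjusted p = 6.72e-21) against SASCs. EASCs were 1.84 above PASCs (SE 0.0651, edgeR adjusted p = 2.9e-18).

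Markers of smooth muscle cells and myofibroblasts moved with Tnc. Their summed level was 120 to 130 FPKM for SASCs, 2400 to 2680 for PASCs, and 5240 to 5580 for EASCs. None was at 0, and 6 of 6 were upregulated in EASCs and in PASCs against SASCs, and 5 of 6 in EASCs against PASCs. Their part in the result was not tested. Mesothelial markers were higher in sum in PASCs and EASCs than in SASCs, at 7.46 to 7.90 FPKM for SASCs, 34.6 to 36.1 for PASCs, and 41.5 to 45.5 for EASCs, with 5 and 4 of 5 tested upregulated in PASCs and EASCs against SASCs by edgeR. Between EASCs and PASCs 0 of 5 were DEGs by edgeR or DESeq2, while 3 had an edgeR p-value under 0.05, both unadjusted and adjusted, and were under 2-fold. Upk1b had 1.07 FPKM in EASCs and 2.1 in PASCs, and Krt19 was at 0 in PASCs. The part of these markers was not tested either.

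Tnn, the gene of tenascin-N (chromosome 13, 77829384 to 77897844, minus strand), had the opposite direction to Tnc in EASCs at a much lower level. It had 2.75, 3.23, and 4.2 CPM in SASCs, 2.72, 2.80, and 2.28 CPM in PASCs, and 0.586, 0.365, and 0.358 CPM in EASCs, where the counts were 14, 9, and 8. SASCs and PASCs overlapped, and the EASCs samples lay below both. The log2 fold change in EASCs was −2.93 against SASCs (SE 0.306, edgeR adjusted p = 2.6e-09) and −2.57 against PASCs (SE 0.313, edgeR adjusted p = 2.16e-07). PASCs and SASCs were not distinguished, at −0.36 (SE 0.237, edgeR adjusted p = 0.175), and scaling by total counts gave −0.70 (edgeR adjusted p = 0.0288), which was −0.37 relative to the median of all genes on that scale.

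Postn, the gene of periostin, which takes part in collagen assembly and in the crosslinking of matrix, was highest in PASCs (chromosome 2, 143656818 to 143688087, plus strand). SASCs samples had 64.6, 64.2, and 65.4 CPM, PASCs samples 137, 133, and 138 CPM, and EASCs samples 52.1, 47.8, and 44.6 CPM. The groups did not overlap, in the order EASCs, SASCs, PASCs. Postn was upregulated in PASCs against SASCs at 1.07 (SE 0.0588, edgeR adjusted p = 3.75e-15), but with total counts as the scale the value was 0.75, under 2-fold. Against PASCs, EASCs were lower at −1.5 (SE 0.0601, edgeR adjusted p = 3.71e-17). EASCs were below SASCs by less than 2-fold, at −0.43 (SE 0.061, edgeR adjusted p = 6.94e-07).

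Sparc encodes the calcium- and collagen-binding glycoprotein SPARC and was the most abundant of the 9 genes per length in every group (chromosome 10, 40742390 to 40764222, minus strand). Its levels were 4311, 4461, and 4359 CPM in SASCs, 5527, 5517, and 5386 CPM in PASCs, and 6626, 6536, and 6796 CPM in EASCs. The groups did not overlap, yet no difference reached 2-fold. Against SASCs the log2 fold change was 0.60 in EASCs (SE 0.0577, edgeR adjusted p = 4.59e-10) and 0.32 in PASCs (SE 0.0575, edgeR adjusted p = 1.75e-05). The difference between EASCs and PASCs was 0.28 (SE 0.0575, edgeR adjusted p = 0.000365). With scaling by total counts the median of all genes shifted to −0.39, −0.33, and −0.08 in EASCs against SASCs, PASCs against SASCs, and EASCs against PASCs. Sparc was then at 0.21, 0.00, and 0.21, none of which passed the test, and relative to the shifted medians it was at 0.60, 0.33, and 0.29.

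Spp1 encodes osteopontin, a phosphorylated ligand of integrins and CD44 in bone and inflamed tissue, and was highest in PASCs (chromosome 14, 6673686 to 6679942, minus strand). It had 29.5, 33.9, and 32.2 CPM in SASCs, 53.9, 56.0, and 54.9 CPM in PASCs, and 38.5, 36.2, and 29.4 CPM in EASCs. The PASCs samples lay above all others, and SASCs and EASCs overlapped. PASCs were higher than SASCs at 0.79 (SE 0.081, edgeR adjusted p = 1.92e-09), and EASCs were lower than PASCs at −0.66 (SE 0.0805, edgeR adjusted p = 2.07e-07), both under 2-fold. EASCs and SASCs were not distinguished, at 0.13 (SE 0.0829, edgeR adjusted p = 0.179), but the value was 0.24 and passed the test without EASCs sample 3. With scaling by total counts it was −0.26, which was 0.13 relative to the median of all genes on that scale. Macrophages, which also express this gene, were looked for by 7 markers shared with other leukocytes, of which 6 were found. These summed to 22.4 to 24.5 FPKM for SASCs, 32.7 to 33.3 for PASCs, and 52.8 to 53.3 for EASCs, and 5, 3, and 1 of 6 were upregulated in EASCs against SASCs, PASCs against SASCs, and EASCs against PASCs. None of the 6 was at 0 in any group, and their part in the level of Spp1 was not tested. Osteoblast markers summed to 5.75 to 6.14 FPKM for SASCs, 4.78 to 5.99 for PASCs, and 3.97 to 4.92 for EASCs, with Ibsp, the gene of bone sialoprotein, at 0 in every group. The 2 tested both had an edgeR adjusted p-value under 0.05 against SASCs in EASCs and in PASCs. Runx2, which held most of the sum, had 5.77 FPKM in SASCs, 4.91 in PASCs, and 3.91 in EASCs, and Sp7, the one above 2-fold, had 0.0601, 0.303, and 0.361. Their part in the level of Spp1 was not tested.

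Thbs2, the gene of thrombospondin 2, a trimeric protein of the family known to inhibit angiogenesis, was highest in SASCs (chromosome 1, 56653929 to 56683571, minus strand). It was measured at 1469, 1497, and 1532 CPM in SASCs, 628, 599, and 681 CPM in PASCs, and 592, 593, and 640 CPM in EASCs. The SASCs samples lay above all others, and PASCs and EASCs overlapped. Thbs2 was downregulated at −1.30 in EASCs (SE 0.0587, edgeR adjusted p = 4.19e-17) and at −1.24 in PASCs (SE 0.0586, edgeR adjusted p = 1.28e-16) against SASCs. Between EASCs and PASCs the value was −0.06 (SE 0.0579, edgeR adjusted p = 0.453). Endothelial markers summed to 11.9 to 12.7 FPKM for SASCs, 2.62 to 3.39 for PASCs, and 8.91 to 10.0 for EASCs. Of these 5 markers, 1 was upregulated and 4 were downregulated in PASCs against SASCs, 1 and 1 in EASCs against SASCs, and 4 and 0 in EASCs against PASCs. Tek was lowest in SASCs, at 0.536 FPKM against 1.74 in PASCs and 1.70 in EASCs. None was at 0 in a whole group, and their part in the result was not tested.

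Thbs4 encodes thrombospondin 4, a pentameric thrombospondin of tendon and muscle (chromosome 2, 22343727 to 22385855, minus strand), and was scarce in all groups. SASCs samples had 1.98, 2.08, and 1.22 CPM, PASCs samples 4.36, 4.34, and 4.24 CPM, and EASCs samples 0.126, 0.0811, and 0.179 CPM. The groups did not overlap, and the EASCs values rest on 3, 2, and 4 counts, at about the level that 3 counts allow. Over the 3 samples of each group, there were 131 counts in SASCs, 310 in PASCs, and 9 in EASCs. After division by the TMM-scaled library sizes, the level in SASCs was 14.2 times that in EASCs, with an exact 95% counting interval of 7.24 to 31.7. That in PASCs was 34.0 times the level in EASCs (17.7 to 75.1), and these intervals cover counting error only. In the fit, Thbs4 was lower in EASCs than in SASCs (edgeR adjusted p = 6.3e-09) and than in PASCs (edgeR adjusted p = 1.4e-11). It was upregulated in PASCs against SASCs at 1.28 (SE 0.241, edgeR adjusted p = 4e-05). This value was 0.95, under 2-fold, with total counts as the scale, where the median of all genes was −0.33.

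Comp encodes cartilage oligomeric matrix protein, the fifth thrombospondin, and was near the limit of detection in SASCs (chromosome 16, 20798437 to 20807070, minus strand). It had 0.139, 0.127, and 0.146 CPM in SASCs, from 4, 3, and 3 counts, 0.421, 0.785, and 1.01 CPM in PASCs, and 0.963, 1.42, and 0.895 CPM in EASCs. The SASCs samples lay below all others, and PASCs and EASCs overlapped. The totals were 10 counts in SASCs, 51 in PASCs, and 78 in EASCs. Per scaled library size, the level in EASCs was 8.01 times that in SASCs (exact 95% counting interval 4.13 to 17.4), and the level in PASCs was 5.17 times that in SASCs (2.60 to 11.4). Comp passed the test in EASCs (edgeR adjusted p = 2.14e-05) and in PASCs (edgeR adjusted p = 0.000565) against SASCs, whereas EASCs and PASCs were not distinguished, at 0.60 (SE 0.413, edgeR adjusted p = 0.304). When SASCs and PASCs were fitted alone, Comp did not pass the filter on low counts. Its test in PASCs against SASCs was therefore made only because EASCs, where it was highest on average, were in the model. Markers of tendon and cartilage cells, in which Comp and Thbs4 are abundant, summed to 1.74 to 2.25 FPKM for SASCs, 14.3 to 16.6 for PASCs, and 14.3 to 15.2 for EASCs. Of 6 listed, 4 were tested and 4 were upregulated in both EASCs and PASCs against SASCs. In EASCs against PASCs 2 of the 4 were downregulated, and Scx had 3.06 FPKM in EASCs and 6.40 in PASCs and Acan 0.146 and 0.512, while Sox9 had 11.2 and 8.21. Acan was at 0 in SASCs, Col2a1 at 0 in SASCs and PASCs, and Tnmd at 0 in EASCs, and the part of these markers was not tested.

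The balance of the members within a sample, which does not depend on scaling between samples, also differed. The ratio of Tnc to Fn1 per length was 0.0436 ± 0.00137 (SD, n = 3) in SASCs, 0.364 ± 0.0242 in PASCs, and 0.610 ± 0.0259 in EASCs, so that EASCs were 14.0 times and PASCs 8.33 times SASCs. The ratio of Sparc to Fn1 was 3.18 ± 0.242 in SASCs, 7.39 ± 1.04 in PASCs, and 4.19 ± 0.332 in EASCs. That of Thbs2 to Fn1 was 0.401 ± 0.0219 in SASCs, 0.314 ± 0.0212 in PASCs, and 0.141 ± 0.00774 in EASCs. No groups overlapped in these 3 ratios, and each pair of groups gave p = 0.1 in a two-sided exact permutation test, the smallest value that 3 samples against 3 allow. A ratio shows unequal change and not which gene changed.

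**Figure D3:**
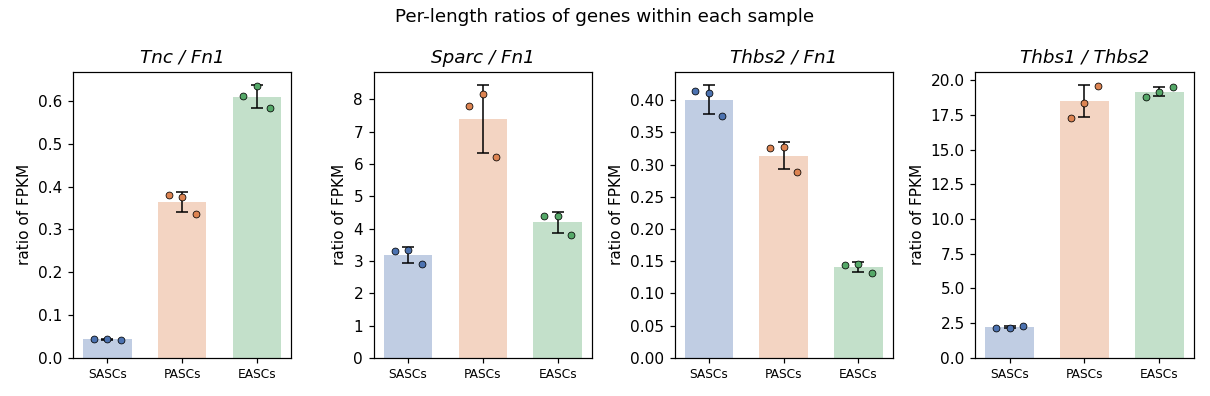
Ratios of FPKM within each sample for Tnc to Fn1, Sparc to Fn1, Thbs2 to Fn1, and Thbs1 to Thbs2; points are samples, bars group means, and whiskers SDs (n = 3). Tnc to Fn1 was 0.0436 in SASCs and 0.610 in EASCs, and Thbs1 to Thbs2 was 2.22 in SASCs and 19.2 in EASCs.

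Together the 9 genes took 1.60% ± 0.0619 (SD, n = 3) of the counts outside ribosomal RNA genes in SASCs, 1.34% ± 0.0509 in PASCs, and 2.16% ± 0.0968 in EASCs. Fn1 held 0.748% in SASCs, 0.388% in PASCs, and 0.794% in EASCs, and Sparc 0.600%, 0.716%, and 0.837%. Tnc held 0.0298%, 0.128%, and 0.442%, whereas Thbs2 held 0.206%, 0.0832%, and 0.0765%. The 5 other genes summed to 0.0106 to 0.0260% as group means. With all counts in the denominator the 9 genes took 1.38%, 0.973%, and 1.54%.

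**Figure D4:**
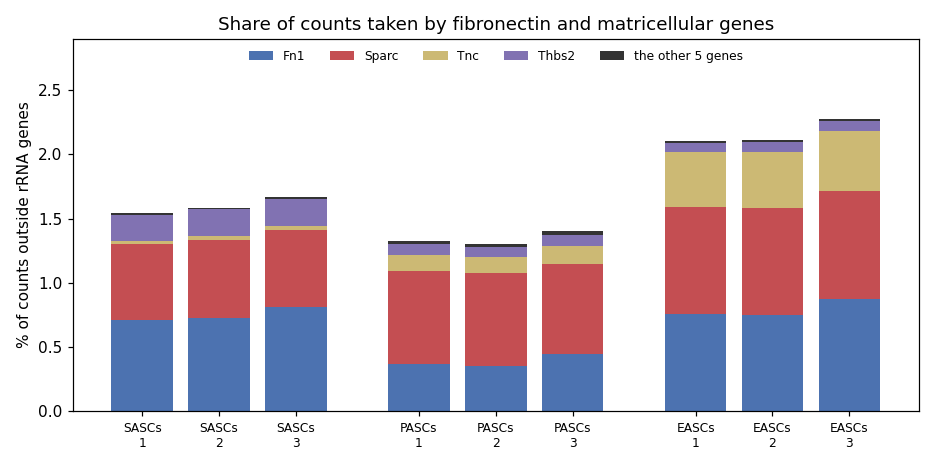
Stacked shares of the counts outside ribosomal RNA genes, in percent, for Fn1, Sparc, Tnc, Thbs2, and the 5 other genes in each of the 9 samples. The stack was 1.54 to 1.67% for SASCs, 1.30 to 1.40% for PASCs, and 2.1 to 2.27% for EASCs, whose Tnc segments are the tallest.

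Among other genes of the matricellular families, listed together with matrilins and vitronectin, 25 of 26 were found and 16 tested. The matrilin genes Matn2, Matn3, and Matn4 are among those counted below as upregulated in both comparisons with SASCs. In EASCs against SASCs, 9 were upregulated and 2 downregulated with a median log2 fold change of 1.70, and in PASCs 8 and 3 with a median of 1.03. EASCs against PASCs gave 5 and 1 with a median of 0.46. The shares called were 68.8%, 68.8%, and 37.5%, beside 27.8%, 26.9%, and 7.39% of all genes, whose medians were 0.01, −0.01, and −0.01. This list and the lists of receptors and partners below were chosen with earlier results of these data known, so their shares are descriptive only. Thbs1, the gene of thrombospondin 1, which was chosen after its values were seen because it is the closest relative of Thbs2, went the other way from Thbs2. It had 2119 CPM ± 133 (SD, n = 3) in SASCs, 7502 ± 885 in PASCs, and 7448 ± 458 in EASCs, with log2 fold changes of 1.81 (SE 0.0762, edgeR adjusted p = 8.53e-18) in EASCs and 1.82 (SE 0.0762, edgeR adjusted p = 7.78e-18) in PASCs. The ratio of Thbs1 to Thbs2 per length was 2.22 ± 0.0926 in SASCs, 18.5 ± 1.14 in PASCs, and 19.2 ± 0.354 in EASCs, and the latter groups overlapped (two-sided exact permutation p = 0.5). Each was above SASCs without overlap (p = 0.1 in the same exact permutation test, the smallest it can give).

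Ctgf, whose product CCN2 is a matricellular protein of the CCN family, had 372 CPM ± 21.7 (SD, n = 3) in SASCs, 2476 ± 184 in PASCs, and 3597 ± 140 in EASCs, a log2 fold change of 2.73 and 3.27 against SASCs. Nov, another CCN gene, rose by 1.93 in EASCs and was under 2-fold in PASCs at 0.24. With total counts as the scale the latter became −0.08, which was 0.25 relative to the median of all genes on that scale. Smoc1, of the SPARC family, was upregulated by 2.34 in EASCs and lower in PASCs at −0.82. Sparcl1, the closest relative of Sparc, was downregulated at −2.37 in PASCs, and its value of −0.50 in EASCs did not pass the test (edgeR adjusted p = 0.0637) except without SASCs sample 3, at −0.65, or with total counts as the scale, at −0.89, which was −0.50 relative to the median of all genes on that scale. Tgfbi, a periostin relative with the same FAS1 domains, was lowest in EASCs, with 154 CPM ± 5.94 in SASCs, 26.1 ± 0.489 in PASCs, and 9.02 ± 1.03 in EASCs (−4.10 in EASCs and −2.56 in PASCs against SASCs). Of the matrilins, Matn4 was upregulated at 3.41 and 2.37, but it overlaps Rbpjl and strand use in the counting is not given in the sources used here. Matn3 had 5 counts in all in SASCs, 211 in PASCs, and 127 in EASCs.

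**Figure D5:**
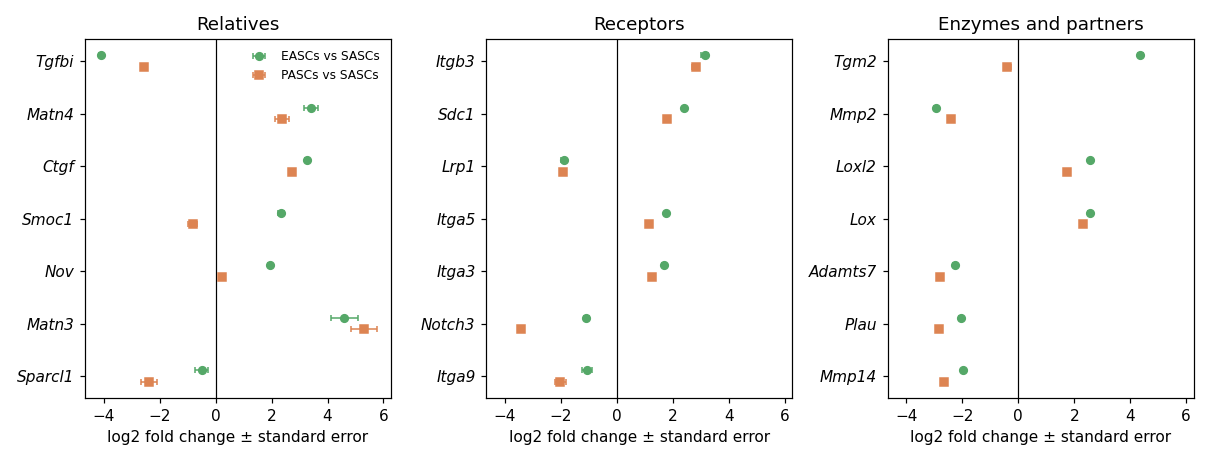
Log2 fold changes of the named relatives, receptors, and enzymes and partners, 1 gene to a line, with circles for EASCs and squares for PASCs, both against the shared SASCs samples; whiskers are standard errors. Ctgf lies at 3.27 and 2.73, while Tgm2 lies at 4.36 in EASCs and −0.40 in PASCs.

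Of the 25 receptors listed, which are integrin subunits and other surface proteins that bind the members, 24 were tested. In EASCs against SASCs 7 were upregulated and 4 downregulated (median 0.12), in PASCs 5 and 5 (median 0.18), and in EASCs against PASCs 3 and 0 (median 0.22), or 5 in all without EASCs sample 2. With scaling by total counts, 6 were upregulated and 6 downregulated in EASCs and 3 and 7 in PASCs against SASCs. The shares called were 45.8%, 41.7%, and 12.5%, beside the 27.8%, 26.9%, and 7.39% of all genes. Itga5, whose product pairs with integrin β1 as the main fibronectin receptor, had 92.5 CPM ± 1.06 (SD, n = 3) in SASCs, 207 ± 7.09 in PASCs, and 314 ± 19.6 in EASCs, which was 1.76 (SE 0.0569, edgeR adjusted p = 2.07e-20) and 1.16 (SE 0.0565, edgeR adjusted p = 2.48e-16) above SASCs in EASCs and PASCs. Itgb3, a subunit of receptors for osteopontin and fibronectin, was upregulated by 3.14 and 2.81, Itga3 by 1.69 and 1.27, and Sdc1, the gene of the heparan sulfate proteoglycan syndecan-1, by 2.41 and 1.79. Lrp1, through which cells take up thrombospondins, was downregulated like Thbs2, with 4016 CPM ± 316 in SASCs, 1072 ± 128 in PASCs, and 1078 ± 112 in EASCs. Itga9, a subunit of a receptor of tenascin-C and osteopontin, was downregulated at −1.08 and −2.03, but it overlaps Ctdspl. Notch3, listed because its product binds thrombospondin 2, was lowest in PASCs with 48.0 CPM ± 1.81 in SASCs, 4.43 ± 0.576 in PASCs, and 22.5 ± 2.88 in EASCs.

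Of 29 enzymes and partners that process, crosslink, or carry the members, 27 were tested. In EASCs against SASCs 8 were upregulated and 7 downregulated (median 0.03), in PASCs 7 and 7 (median −0.13), and in EASCs against PASCs 1 and 0 (median 0.24), or 2 in all without PASCs sample 1. With scaling by total counts, 5 were upregulated and 9 downregulated in EASCs and 4 and 9 in PASCs against SASCs. The shares called were 55.6%, 51.9%, and 3.7%, beside 27.8%, 26.9%, and 7.39% of all genes, and the last share rests on 1 gene. The single gene called between EASCs and PASCs was Tgm2, whose product transglutaminase 2 crosslinks fibronectin, with 6.12, 7.43, and 9.32 CPM in SASCs, 5.20, 5.50, and 6.57 CPM in PASCs, and 146, 160, and 157 CPM in EASCs. The EASCs samples stood apart from both other groups, at 4.36 above SASCs (SE 0.0961, edgeR adjusted p = 3.83e-24) and 4.76 above PASCs (SE 0.1, edgeR adjusted p = 5.37e-23), whereas PASCs and SASCs overlapped at −0.40, under 2-fold. Lox and Loxl2, genes of lysyl oxidases that crosslink collagen, were each upregulated by 2.57 in EASCs and by 2.31 and 1.75 in PASCs. Mmp2, the gene of gelatinase A, was downregulated at −2.94 and −2.39 in EASCs and PASCs. So were Mmp14, whose product activates that enzyme, at −1.96 and −2.65, Adamts7, whose product cleaves COMP, at −2.26 and −2.81, and Plau, the gene of urokinase, at −2.05 and −2.84. Mmp2, Lox, and Loxl2 overlap other genes of fewer counts.

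The genes whose centred log2 CPM lay nearest to each member over the 9 samples, out of 8057 genes of at least 10 CPM, were found by the root mean square (RMS) difference. For Fn1 these were Fbn1, the gene of the microfibril protein fibrillin 1, at 0.114 and Alcam at 0.122, where the centred values of Fn1 itself had an RMS of 0.490. For Tnc they were Tgfb3, the gene of a TGF-β ligand, at 0.115 and Lmcd1 at 0.153, against an RMS of 1.64. For Thbs2 they were Csf1, the gene of a macrophage growth factor, at 0.0499 and Acap2 at 0.0560, against 0.602. Postn was nearest to Ptgs1 (0.157) and Pitpnc1 (0.163), Spp1 to Emp1 (0.108) and G2e3 (0.115), and Sparc to Noc2l (0.0427) and Csrnp1 (0.0437). The own RMS of these members was 0.633, 0.364, and 0.248. The scarce genes had no neighbour as near, with Avpr1a at 0.291 and Ahrr at 0.348 for Tnn, Tgfa at 0.306 and Sox9 at 0.312 for Comp, and Dmrt2 at 0.624 and Kcnk2 at 0.871 for Thbs4.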

How the data were processed

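RNA of 3 SASCs, 3 PASCs, and 3 EASCs samples was compared, grouped and numbered by their titles. The authors trimmed paired-end reads, aligned them with TopHat, and deposited whole-number counts per gene, with a gene length, that are not normalized. The counting tool and strand use are not given in the sources used here, so reads of overlapping or near-identical genes may be split. The methods name rn6 and the submitters' processing notes rn5, and the positions are those of the deposited table, whose build was taken as rn6. Promoters are on GRCr8 and were matched by symbol only.

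Counts were scaled by TMM and filtered by filterByExpr in edgeR 4.0.16 (R 4.3.3), which left 14770 genes. One model of the groups held all 9 samples, with Benjamini-Hochberg adjustment over all genes in each comparison. Each standard error (SE) was the absolute log2 fold change divided by the square root of the test's F statistic, and is nominal for scarce genes. FPKM was computed from the scaled CPM and the deposited length. Samples of a group differed beyond counting noise. The genes, lists, and markers were chosen with earlier results of these data known, and the genes to name were the members and, in each list and comparison with SASCs, at most 5 DEGs with the largest change, no overlap, and at least 1 FPKM, and the 2 nearest genes of each member. Thbs1 and the single marker genes given with levels were chosen after their values were seen. Alternatives were DESeq2 1.42.0, other scalings, filters, thresholds, and pseudocounts (1 and 0.1, limma 3.58.1), a replicate block, and leaving out each sample.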

Additional observations from a re-analysis of the deposited data

Results flagged for a closer look

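For 5 of the 9 genes, the difference from SASCs was not the same in EASCs as in PASCs, as tested by edgeR between EASCs and PASCs directly and with a fold change above 2, against 7.39% of all genes tested. On the log2 scale, EASCs minus PASCs was 1.09 for Fn1, 1.84 for Tnc, −2.57 for Tnn, −1.5 for Postn, and −5.03 for Thbs4. Fn1 and Postn moved in opposite directions from SASCs in the visceral groups, Fn1 up in EASCs and down in PASCs and Postn the reverse, although the value of Fn1 in EASCs was 0.21 and lost its call under several alternatives. Thbs4 was above SASCs in PASCs and below them in EASCs, where its level rests on 9 counts.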

How the results depend on the processing

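The 5 DEGs among the members in each comparison were called at the same number with DESeq2, with RLE size factors, without ribosomal RNA genes, without a filter on low counts, with a pseudocount of 0.1, and without each sample in turn (5 to 5). With a filter of 1 FPKM in every sample compared, which removes scarce genes, the numbers were 2, 3, and 3 in EASCs against SASCs, PASCs against SASCs, and EASCs against PASCs. With limma on log2(FPKM + 1) they were 2, 3, and 4 in the same order, and with no fold threshold 8, 8, and 7. That pseudocount of 1 brought the scarce genes Tnn, Thbs4, and Comp to −0.53, −0.57, and 0.38 in EASCs against SASCs, under 2-fold. Fitting only the samples compared gave 4 in PASCs against SASCs, where Comp no longer passed the filter on low counts. Leaving out each sample gave 2 to 5 DEGs among receptors in EASCs against PASCs, with 5 without EASCs sample 2, and 1 to 2 among partners, with 2 without PASCs sample 1. With all counts in the denominator, the members took 1.38%, 0.973%, and 1.54% in SASCs, PASCs, and EASCs. Scaling by total counts moved the calls of all genes from 2002 higher and 2103 lower to 1349 and 3426 in EASCs against SASCs and from 1779 and 2200 to 1262 and 3169 in PASCs against SASCs, with the medians of all genes at −0.39 and −0.33. On that shifted scale Fn1 (−0.20) and Spp1 (−0.26) in EASCs against SASCs, Nov (−0.08) in PASCs against SASCs, and Lrp1 (−0.09) in EASCs against PASCs were below 0 and Sparc (0.00) in PASCs against SASCs was at 0. Relative to the shifted medians Fn1, Spp1, Nov, and Sparc were at 0.19, 0.13, 0.25, and 0.33. Lrp1 in the latter comparison, which did not pass the test, was also at −0.01, −0.07, and −0.08 without PASCs sample 1, PASCs sample 2, and EASCs sample 3. The filter of 1 FPKM and limma with a pseudocount of 1 lowered the calls of all genes in EASCs against PASCs from 766 higher and 325 lower to 211 and 94 and to 180 and 85. Under a replicate block, the members had 5, 5, and 5 DEGs and no call among them changed. Deviations of samples with the same number correlated across genes at −0.0326 to 0.0286. This shows no pairing across genes as a whole, but it cannot exclude pairing that acts on some genes, which was not tested. Sample 3 had the highest CPM in every group for Fn1, Tnc, and Thbs2. This did not hold for Tnn, Postn, Sparc, Spp1, Thbs4, and Comp. Values under about 0.159 CPM, such as Thbs4 in EASCs and Comp in SASCs, are limited by depth.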
